A study of Homo sapiens with 5 samples.

Results

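GDF15, STC1 and STC2, which are hormones secreted by stressed cells, were read together with 7 other genes. These were the TGF-beta family ligand subunit INHBA, the ligands TGFB1, TGFB2 and TGFB3, and the secreted binding proteins FST, FSTL1 and GREM1. These 10 genes were chosen by name, and the FPKM of each was summed over its annotated Ensembl transcripts. FPKM counts sequenced fragments per kilobase of a transcript and scaled by the depth of its library. All 10 passed the filter on low values, which asked for a mean of 1 FPKM and kept 12559 genes of the series. STC2 was listed at 0 in 1 library on this sum, and no other gene of the 10 was listed at 0 anywhere.

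The libraries hold total RNA of WI-38 cells, a line of diploid fibroblasts from human lung. One library came from cells at population doubling level (PDL) 15 and 1 from cells at PDL 55, both without transfection. The other 3 came from cells at PDL 15 transfected with a control siRNA, with siRNA against AUF1 or with siRNA against HuR. With 1 library per group no test was possible, and every ratio compares 2 libraries.

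A few features of the whole series bear on these values. HNRNPD, the gene of AUF1, stood at 61.2 FPKM with control siRNA and 20.3 with AUF1 siRNA. It was 119.1 at PDL 15, 42.3 at PDL 55 and 120.3 with HuR siRNA. Its bounds at PDL 55 and with control siRNA lay below those at PDL 15 and with HuR siRNA. ELAVL1, the gene of HuR, stood at 11.8 with control siRNA and 9.72 with HuR siRNA, with overlapping bounds. The 2 libraries are called knockdown libraries after the siRNA used, and for HuR the RNA values do not show a clear fall. Coverage per unit of FPKM, which scales with depth, lay between 1.14 and 1.29 in 4 libraries but was 0.300 with control siRNA. There, assembled transcripts with no gene held 77.3% of the product of FPKM and length, against 11.8% to 16.3% elsewhere. Of 10 mesenchymal markers 8 to 10 reached 1 FPKM in each library, and their summed FPKM ran from 1705 with control siRNA to 10926 with AUF1 siRNA. VIM (vimentin), which fibroblasts make in quantity, was listed at 0 with control siRNA, as was COL1A1 with HuR siRNA, so a 0 in these tables can be a failed estimate. Summed epithelial markers (6.74 to 19.4 FPKM), endothelial markers (7.07 to 22.9) and blood markers (1.19 to 23.2) were low, with KRT5 and PECAM1 at 0 in every library. The part of these differences between libraries in the values below was not tested.

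GDF15 and the stanniocalcins are released when cells meet nutrient, hypoxic or proteotoxic stress. Ligands of the TGF-beta family are made as precursors, bind paired serine/threonine kinase receptors and signal through SMAD proteins, and secreted antagonists hold many of them away from those receptors. Fibroblasts both make and answer these factors, and activin A and several others are known components of the secretome of late-passage cells. AUF1 and HuR bind AU-rich stretches in mRNA, often in the 3′ UTR, where they influence decay and translation.

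Because both siRNA targets recognise such stretches, the 3′ UTRs of the 10 genes were searched on the sense strand for the pentamer ATTTA and the nonamer TTATTTATT, which contains it. The UTRs came from GENCODE release 29 (GRCh38), from 1 coding transcript per gene, the one with the longest 3′ UTR. GDF15 held 5 pentamers in only 241 nt, and among 1166 genes with a UTR within 20% of that length 0.429% held as many. FST held 10 pentamers and 3 nonamers in 1418 nt, and 1.95% and 0.507% of UTRs of like length held as many of each. INHBA had 13 pentamers and 2 nonamers in 4536 nt, against a median of 9 and 0 for its length. TGFB2 had 7 and 2 in 3257 nt, where the pentamer median was also 7. STC2 with 13 pentamers and TGFB1 with 2 had no nonamer, and TGFB3 had neither motif in 985 nt. FSTL1 (12 pentamers), GREM1 (31, in 13862 nt) and STC1 (7) had 1 nonamer each. Over all 18788 UTRs of at least 50 nt, 68.7% held the pentamer and 8.35% the nonamer. The site of GDF15 is shown because its UTR is so short, and those of FST, INHBA and TGFB2 because these are the genes of the 10 with more than 1 nonamer. The nonamer is in capitals.
GDF15, chr19:18389054-18389083, plus strand: tataagtctgTTATTTATTattaatttatt
FST, chr5:53486135-53486164, plus strand: aagtgtatgcTTATTTATTtggggggaaaa
FST, chr5:53486379-53486408, plus strand: agagcagttgTTATTTATTgtgaggtctct
FST, chr5:53486540-53486569, plus strand: tctgtcatgtTTATTTATTggattctctgc
INHBA, chr7:41685699-41685728, minus strand: agctatattaTTATTTATTttttatgcata
INHBA, chr7:41685239-41685268, minus strand: atagcagaagTTATTTATTtctatggcatt
TGFB2, chr1:218441820-218441849, plus strand: taacagtgagTTATTTATTgtgtgttacta
TGFB2, chr1:218444205-218444234, plus strand: ttttattcccTTATTTATTgctatttggta
A match describes the letters of the UTR and is not a measured binding site. The FST sites lie in 2 of that gene's 4 coding transcripts, the INHBA sites in 1 of 3 and the TGFB2 sites in both of its 2. The FST transcript whose UTR was searched, ENST00000396947, was listed at 0 FPKM in all 5 libraries. So were those searched for STC1 (ENST00000290271) and STC2 (ENST00000265087). The one searched for GREM1, ENST00000622074, was not among the annotated transcripts summed for that gene.

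The ratios use a pair of quantities. The ratio of a pair of libraries is log2((FPKM + 1)/(FPKM + 1)) minus the median of the 12559 genes, which makes differences at low levels look smaller than they are. A gene counts as apart when this relative ratio reached 2-fold and the 95% bounds of the deposited FPKM, summed over transcripts, did not overlap. The bounds cover the estimate within a library and not the spread between cultures. The annotated sum gives a short transcript as much weight as a long one and leaves out transcripts assembled from the reads, so a second value is given beside it. This value, called fragment mass here, multiplies the FPKM of each annotated and assembled transcript of the gene by its length and divides the sum by the longest annotated length.

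GDF15 (ENSG00000130513, hg19 chr19:18496968-18499986), a distant member of the TGF-beta family that acts through the receptor GFRAL, has 1 annotated transcript. Its FPKM was 5.46 at PDL 15, 7.01 at PDL 55, 3.04 with control siRNA, 17.1 with AUF1 siRNA and 20.2 with HuR siRNA. Both knockdown libraries lay above the other 3, and their bounds (15.9 to 18.3 and 18.8 to 21.5) overlapped neither each other nor those of any other library. The relative ratio against control siRNA was 1.98 with AUF1 siRNA (3.95-fold) and 2.08 with HuR siRNA (4.23-fold), and both share that control library. Against PDL 15 the same libraries stood at 1.71 and 1.80. At PDL 55 the ratio against PDL 15 was 0.63, short of 2-fold. GDF15 was the one gene of the 10 whose ratio was apart, on annotated sums and on fragment mass alike, in both knockdown libraries whether control siRNA or PDL 15 was the reference.

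STC1 (ENSG00000159167, hg19 chr8:23699428-23712320), a glycoprotein hormone first described as a regulator of calcium and phosphate, differed most between the passages. Its annotated FPKM was 16.5 at PDL 15, 106.5 at PDL 55, 43.0 with control siRNA, 51.1 with AUF1 siRNA and 80.5 with HuR siRNA. PDL 55 was the highest library and PDL 15 the lowest, with no overlap of bounds between any 2 of the 5. PDL 55 against PDL 15 gave a relative ratio of 2.95 (7.71-fold, from bounds 2.80 to 3.10). Against control siRNA the ratio was 0.06 with AUF1 siRNA and 0.58 with HuR siRNA, neither of them apart. Control siRNA itself stood 3.36-fold above PDL 15, at a ratio of 1.75.

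The STC1 estimate comes from ENST00000540277 (1734 nt) in every library, a transcript with status LOWDATA that is not in GENCODE release 29. The coding transcript ENST00000290271 (3883 nt) was listed at 0 in all 5, and in each library an assembled transcript of 3731 to 3790 nt took up fragments in its place. That assembled transcript held 8.19 FPKM at PDL 15, 73.8 at PDL 55, 19.6 with control siRNA, 22.6 with AUF1 siRNA and 39.2 with HuR siRNA, in the same order of libraries as the annotated one. On fragment mass the STC1 ratio of PDL 55 to PDL 15 was 3.18.

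STC2 (ENSG00000113739, hg19 chr5:172741716-172756506), the paralogous hormone induced by endoplasmic reticulum stress, had an annotated FPKM of 29.6 at PDL 15, 45.7 at PDL 55, 68.2 with siRNA against AUF1 and 57.1 with siRNA against HuR, and was listed at 0 with control siRNA. All of it came from ENST00000520593, a transcript of 566 nt, while the coding ENST00000265087 was listed at 0 everywhere. Assembled transcripts of 2539 to 4700 nt carried the rest, and with control siRNA an assembled transcript of 4101 nt stood at 31.1 FPKM. The STC2 fragments of that library were thus listed under an assembled transcript, and no fold against the 0 is given.

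On fragment mass STC2 was 17.8 at PDL 15, 32.4 at PDL 55, 23.9 with control siRNA, 45.2 with AUF1 siRNA and 27.1 with HuR siRNA. AUF1 siRNA was the highest and PDL 15 the lowest, and the bounds of no pair of libraries overlapped. The ratio of PDL 55 to PDL 15 was 1.13 on this measure and 0.93 on annotated sums, on either side of 2-fold. Against control siRNA the mass ratio was 0.70 with AUF1 siRNA and -0.14 with HuR siRNA, so neither library was apart.

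**Figure D1:**
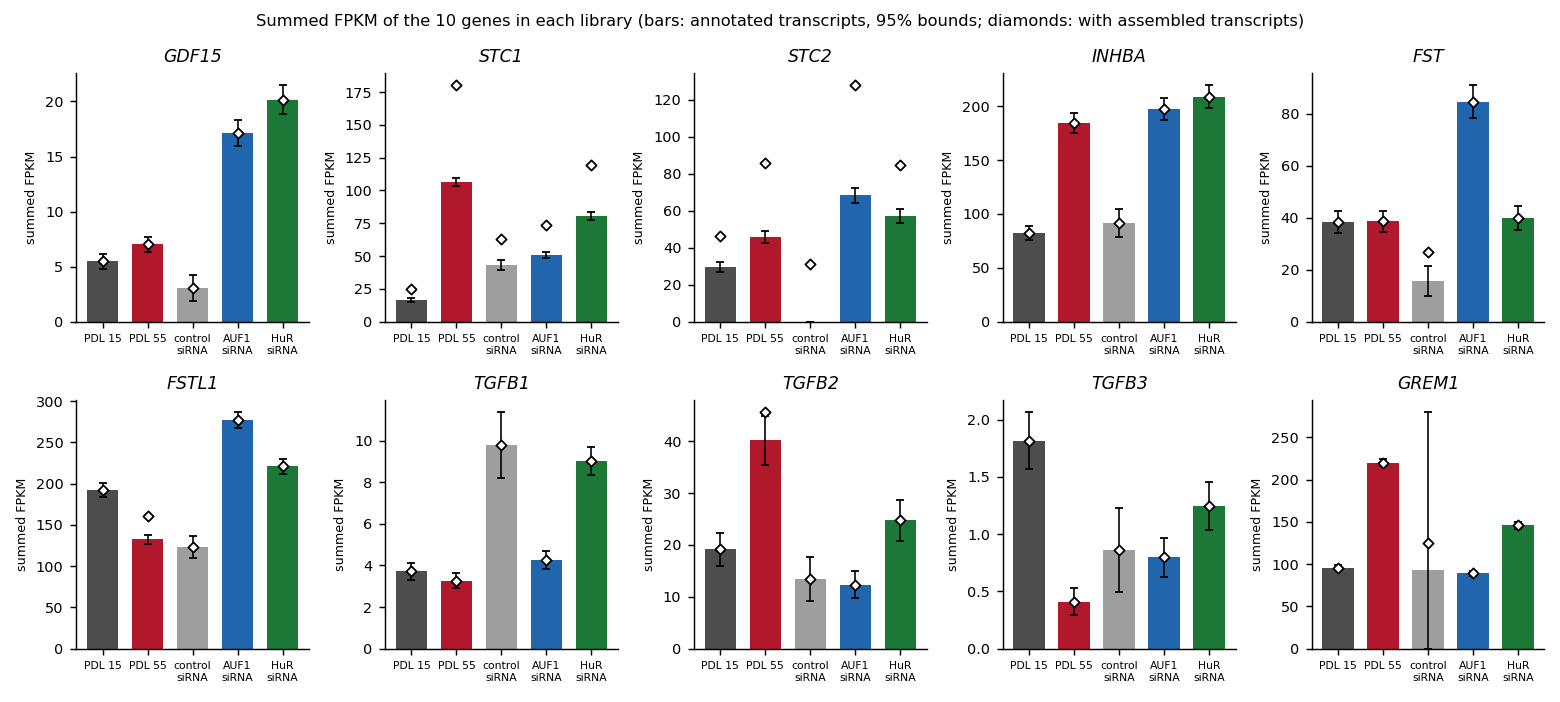
Summed FPKM (vertical axes, linear from 0) of each of the 10 genes in the 5 libraries. Bars are annotated sums with summed 95% bounds, and diamonds add assembled transcripts, without bounds. GDF15 is highest in the 2 knockdown libraries, STC1 at PDL 55, and the STC2 bar is absent with control siRNA although its diamond stands at 31.1.

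INHBA (ENSG00000122641, hg19 chr7:41706766-41744933) encodes the beta A subunit that forms activin A. Its annotated FPKM was 82.2 at PDL 15, 184.7 at PDL 55, 91.6 with control siRNA, 197.8 with AUF1 siRNA and 209.0 with HuR siRNA. The libraries fell into a low pair (PDL 15 and control siRNA, bounds overlapping) and a high set of 3 whose bounds did not reach it. PDL 55 against PDL 15 gave 1.48 (2.80-fold, 1.43 on fragment mass) and was apart. Against control siRNA the ratios were 0.92 with AUF1 siRNA and 0.87 with HuR siRNA on annotated sums. On fragment mass they were 0.70 and 0.56, and each was short of 2-fold relative to the median gene. Before the median was subtracted, the ratios on annotated sums were 1.10 and 1.18. Against PDL 15 the relative ratios were 1.47 and 1.42, and 1.36 and 1.21 on fragment mass.

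Of the INHBA transcripts, ENST00000416150, of 386 nt, held the most FPKM, from 68.0 at PDL 15 to 171.5 with HuR siRNA. The coding transcript ENST00000242208, of 6064 nt, was 4.71 at PDL 15, 11.0 at PDL 55, 5.94 with control siRNA, 8.95 with AUF1 siRNA and 6.94 with HuR siRNA. PDL 55 was the highest on this long transcript and HuR siRNA only the third. Counting by strand is not stated, and INHBA-AS1 runs antisense to INHBA, so reads of the pair cannot be told apart.

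FST (ENSG00000134363, hg19 chr5:52776239-52782964), whose product follistatin binds activins and blocks them, followed another pattern. Its annotated FPKM was 38.1 at PDL 15, 38.5 at PDL 55, 15.6 with control siRNA, 84.5 with AUF1 siRNA and 39.8 with HuR siRNA. AUF1 siRNA stood alone at the top, and PDL 15, PDL 55 and HuR siRNA overlapped one another. The long coding FST transcript ENST00000256759 (2519 nt) was 6.55 at PDL 15, 6.56 at PDL 55, 2.91 with control siRNA, 12.6 with AUF1 siRNA and 5.04 with HuR siRNA, so AUF1 siRNA led here too. AUF1 siRNA was apart from HuR siRNA at a ratio of 1.19 (2.28-fold, on fragment mass 1.22) and from PDL 15 at 1.35.

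Against control siRNA the FST ratio was 2.18 with AUF1 siRNA, but that value rests on the low annotated sum of the control library. An assembled FST transcript of 2516 nt held 11.1 FPKM there and is found in no other library. On fragment mass FST was 16.7 at PDL 15, 16.5 at PDL 55, 18.1 with control siRNA, 36.7 with AUF1 siRNA and 16.6 with HuR siRNA, which puts 4 libraries together and AUF1 siRNA above them. The mass ratio of AUF1 siRNA to control siRNA was 0.79, short of 2-fold, and the bounds of the 2 libraries (34.0 to 39.5 and 13.6 to 22.5) did not overlap.

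Activin and follistatin act against each other, so their fragment masses, which are per length, were set side by side. The INHBA value divided by the FST value was 0.695 at PDL 15 (from the bounds, 0.575 to 0.845), 0.764 with control siRNA (0.526 to 1.16) and 0.722 with AUF1 siRNA (0.635 to 0.823). It was 1.61 at PDL 55 (1.38 to 1.89) and 1.57 with HuR siRNA (1.33 to 1.88). The first 3 ranges overlapped one another, as did the last 2, and the sets did not meet. INHBA was thus below FST in 3 libraries and above it at PDL 55 and with HuR siRNA, although with control siRNA the range includes equality. With AUF1 siRNA both genes were high. The INHBA mass also counts the short transcript that held most of its FPKM, and reads of INHBA-AS1 cannot be told apart from those of INHBA.

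FSTL1 (ENSG00000163430, hg19 chr3:120111140-120170100), a secreted follistatin-like glycoprotein of mesenchymal cells, was 192.3 at PDL 15, 132.2 at PDL 55, 123.0 with control siRNA, 276.8 with AUF1 siRNA and 220.8 with HuR siRNA on annotated sums. PDL 55 and control siRNA were low with overlapping bounds, and AUF1 siRNA was the highest. No comparison reached 2-fold relative to the median gene. The closest was AUF1 siRNA against control siRNA at 0.98, and 0.84 on fragment mass. Before the median was subtracted these FSTL1 ratios were 1.16 and 1.03, above 2-fold. The full-length ENST00000295633 (5943 nt) was listed at 0 at PDL 55, where an assembled transcript of 5658 nt stood at 28.95 FPKM, against 25.0 for ENST00000295633 at PDL 15. The relative ratio of PDL 55 to PDL 15 was -0.21 on annotated sums and 0.15 on fragment mass.

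TGFB1 (ENSG00000105329, hg19 chr19:41836813-41859831), the founding ligand of the family, has 1 annotated transcript, which shares its locus with B9D2 and TMEM91. Its FPKM was 3.71 at PDL 15, 3.27 at PDL 55, 9.80 with control siRNA, 4.28 with AUF1 siRNA and 9.03 with HuR siRNA. Control siRNA and HuR siRNA were high with overlapping bounds, and the other 3 lay below them. AUF1 siRNA was thereby apart from control siRNA at -1.22, with a fold of 0.431. Against PDL 15 the sign turned, at 0.38 with overlapping bounds, while HuR siRNA stood at 1.17. Control siRNA was itself 3.06-fold above PDL 15.

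TGFB2 (ENSG00000092969, hg19 chr1:218519577-218617961) was 19.1 at PDL 15, 40.2 at PDL 55, 13.4 with control siRNA, 12.3 with AUF1 siRNA and 24.8 with HuR siRNA. PDL 55 lay above all other libraries, and its bounds (35.5 to 45.0) met none of theirs. The ratio of PDL 55 to PDL 15 was 1.36 (2.57-fold) on annotated sums and 1.66 on fragment mass. Fragment mass also counts assembled TGFB2, found at PDL 55 alone, which brought the FPKM sum there to 45.6. Most of the FPKM came from ENST00000488793, a transcript of 405 nt with status LOWDATA, at 15.2 at PDL 15 and 28.2 at PDL 55. The coding transcripts were low: ENST00000366929 of TGFB2 was at most 1.20 (PDL 55), and ENST00000366930 at most 0.841 (HuR siRNA).

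TGFB3 (ENSG00000119699, hg19 chr14:76424442-76448092) was the lowest of the 10 on fragment mass in every library. It has 1 annotated transcript, at 1.82 FPKM at PDL 15, 0.409 at PDL 55, 0.861 with control siRNA, 0.797 with AUF1 siRNA and 1.25 with HuR siRNA. PDL 15 was the highest and PDL 55 the lowest, with no overlap between them. At these levels the added 1 FPKM holds the ratio down. The ratio of PDL 55 to PDL 15 was -0.999 as deposited and -0.67 relative to the median gene, so TGFB3 was not apart.

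Per length, the makeup of the 3 TGF-beta ligands differed among libraries. TGFB2 held 71.3% of their summed fragment mass at PDL 55, TGFB1 25.5% and TGFB3 3.19%. That TGFB2 share includes assembled transcript, which added to TGFB2 in no other library. At PDL 15 the shares were 34.7% for TGFB2, 43.8% for TGFB1 and 21.4% for TGFB3. In the 3 transfected libraries TGFB1 led, with 77.0% with control siRNA, 62.6% with AUF1 siRNA and 63.8% with HuR siRNA. On this measure TGFB2 led at PDL 55 alone, although at PDL 15 the bounds of TGFB1 (3.31 to 4.12) and TGFB2 (2.28 to 3.61) overlapped. On annotated sums, which the TGFB2 transcript of 405 nt dominates, TGFB2 was above TGFB1 in all 5 libraries.

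GREM1 (ENSG00000166923, hg19 chr15:33010175-33026870), which encodes the BMP antagonist gremlin, was 95.8 at PDL 15, 220.0 at PDL 55, 92.4 with control siRNA, 88.8 with AUF1 siRNA and 145.9 with HuR siRNA. The control value has bounds from 0 to 280.0 and separates from nothing. Among the other 4, PDL 55 was the highest, HuR siRNA the next, and no bounds overlapped, with AUF1 siRNA (85.7 to 91.9) a little below PDL 15 (92.7 to 98.8). PDL 55 against PDL 15 gave 1.52 (2.86-fold). Both annotated GREM1 transcripts are missing from GENCODE release 29 and were assigned to the gene because they lie between SCG5 and FMN1. The one of 3026 nt, ENST00000322805, held most of the FPKM, at 76.6 at PDL 15, 185.1 at PDL 55, 92.4 with control siRNA, 63.9 with AUF1 siRNA and 106.8 with HuR siRNA. On the other GREM1 transcript, ENST00000300177 (4168 nt), HuR siRNA was the highest at 39.1, ahead of PDL 55 at 34.8, AUF1 siRNA at 25.0 and PDL 15 at 19.2, and control siRNA was listed at 0.

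Set against one another per length, GREM1 had the highest fragment mass of the 10 in every library, from 71.3 with AUF1 siRNA to 169.3 at PDL 55, although its control bounds start at 0. At PDL 15 FSTL1 followed at 44.5, then STC2 at 17.8, FST at 16.7 and STC1 at 15.2. At PDL 55 STC1 was the second, at 118.6, ahead of FSTL1 at 40.1. STC2, FST and STC1 at PDL 15 did not all differ beyond their bounds: those of FST (14.8 to 18.5) overlapped both of the others.

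By comparison, 4 of the 10 genes were apart and higher at PDL 55 than at PDL 15 and 0 lower, where 9.02% of all genes were higher, 10.3% lower and 19.3% apart in either direction. These were STC1, GREM1, INHBA and TGFB2, and STC2 joins them on fragment mass (5 of 10, background 13.6%). The 0 lower holds with 1 FPKM added to each value. TGFB3 was 1.82 FPKM at PDL 15 and 0.409 at PDL 55, with bounds that did not overlap. Its ratio of -0.67 lies further below 0 with a smaller pseudocount. The median relative ratio of all 10 genes was 0.78 on annotated sums and 0.87 on fragment mass, against 0 for all genes tested by construction. The bulk RNA does not separate a larger share of producing cells from more RNA per cell.

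With AUF1 siRNA against control siRNA, 4 of 10 were apart (background 18.6%). GDF15, FST and STC2 were the 3 higher (background 9.95%) and TGFB1 the 1 lower (8.66%). On fragment mass 2 remained of these, GDF15 and TGFB1, where 9.48% of genes were apart. With HuR siRNA against control siRNA 2 were apart (background 19%), GDF15 and STC2, and on fragment mass GDF15 alone (background 9.66%). STC2 enters both counts on annotated sums through its 0 in the control library. The median of the 10 ratios was 0.49 with AUF1 siRNA and 0.56 with HuR siRNA on annotated sums, but 0.36 and 0.16 on fragment mass, which turns their order. AUF1 siRNA was apart from HuR siRNA at 1 gene of 10, FST, with a background of 12.2% on annotated sums and 6.48% on fragment mass.

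The 2 libraries at PDL 15 without a targeted knockdown also differed. Control siRNA against PDL 15 had 3 of 10 genes apart (background 21.4%). STC1 and TGFB1 were the 2 higher (background 9.94%) and STC2, listed at 0, the 1 lower (11.5%). On fragment mass STC1 and TGFB1 were the 2 left, with a background of 12.5%. The knockdown libraries were therefore also set against PDL 15, which was not transfected. With AUF1 siRNA 5 were then apart (background 18.3%), namely STC1, GDF15, INHBA, STC2 and FST, all higher, and the same 5 on fragment mass (background 12.4%). With HuR siRNA 5 were apart (background 17.1%), STC1 at 2.31, GDF15 at 1.80, INHBA at 1.42, TGFB1 at 1.17 and STC2 at 1.01. On fragment mass STC2 fell short, leaving 4 (background 10.8%). Against PDL 15 transfection and knockdown cannot be told apart, and STC1 and TGFB1 were already higher with control siRNA. The comparisons with PDL 15, that of PDL 55 included, share the PDL 15 library.

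**Figure D2:**
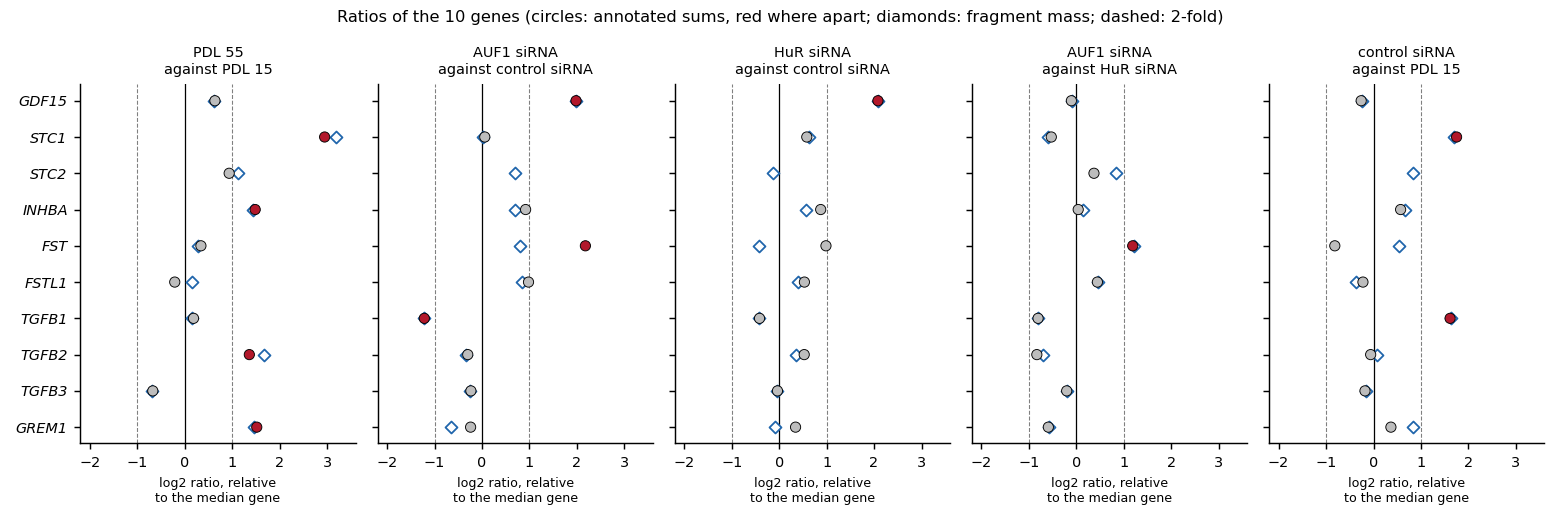
Relative log2 ratios (horizontal axes) of the 10 genes in the 5 comparisons. Circles are annotated sums, red where apart, and diamonds fragment mass. Dashed lines mark 2-fold, and a gene listed at 0 in 1 library has no circle. The circle and diamond of FST in AUF1 siRNA against control siRNA, 2.18 and 0.79, lie on either side of 2-fold.

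The other genes of the pathways were counted in 7 lists, and those named here were apart on both measures unless stated. Of all 12559 genes, 11.4% were apart on both at PDL 55 against PDL 15, 8.44% in AUF1 siRNA against control siRNA, 8.6% in HuR siRNA against control siRNA, and 4.94% in AUF1 siRNA against HuR siRNA. Among other TGF-beta family ligands, 4 of 25 passed the filter, and at PDL 55 against PDL 15 BMP2 (ratio 1.85) and GDF11 (1.73) were higher and GDF5 (-1.55) lower. None of the 4 was apart in either knockdown against control siRNA. Of 7 measured antagonists and binding proteins 2 were higher and 3 lower at PDL 55. FSTL3, a follistatin relative that also binds activin, stood at 1.21, BMPER at 1.30, and the proteoglycans BGN at -2.52 and DCN at -1.55.

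FSTL3 was also apart with HuR siRNA against control siRNA (1.73, from 2.44 to 13.2 FPKM), as was VASN (1.40), a membrane protein that traps TGF-beta. Both were lower with AUF1 siRNA than with HuR siRNA, FSTL3 at -1.81 and VASN at -1.63, opposite in sign to FST in that comparison. Of 11 genes of latent TGF-beta binding and activation 0 were higher and 2 lower at PDL 55, ITGB8 at -2.97 and LTBP4 at -1.95. With HuR siRNA the protease FURIN, which cuts the precursors, stood at 1.76 and the activator THBS1 at 1.24 against control siRNA.

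Among 11 receptors, the pseudoreceptor BAMBI was higher at PDL 55 (1.91), and TGFBR3 (-2.66) and TGFBR1 (-1.93) were lower. BAMBI was also higher than control siRNA with AUF1 siRNA (1.37) and HuR siRNA (1.23), from a control value of 0.253 FPKM. Of 14 SMADs and regulators SMURF2 (1.59) and SMAD7 (1.30), both of which restrain the pathway, were higher at PDL 55, and SMAD1 (-2.07) was lower. Only SMAD3 (1.09 with HuR siRNA) was apart in a knockdown against control siRNA.

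Response genes went both ways. Of 14 measured, 4 were higher and 1 lower at PDL 55, with ID1 at 1.68 and ID3 at 1.67 above and COL1A1 at -1.24 below. With AUF1 siRNA against control siRNA 3 were higher on both measures, COL1A1 (2.21) and COL1A2 (2.30) among them. The list median was 0.09 at PDL 55. Against control siRNA it was 0.75 with AUF1 siRNA and 0.74 with HuR siRNA, or 0.55 and 0.39 on fragment mass. The shared control library was itself low for this list, with a median of -0.48 against PDL 15 (-0.40 on fragment mass).

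The 13 measured regulators of the stress hormones included few that were apart. EGR1 (-2.31) and ASNS (-1.47), an amino acid stress target, were lower at PDL 55. With AUF1 siRNA TRIB3, another target of that stress response, was higher than control siRNA at 1.62. With HuR siRNA TRIB3 was at 1.38 and CHAC1 at 1.22, which on fragment mass came to 0.96 and 0.99, just short of 2-fold.

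**Figure D3:**
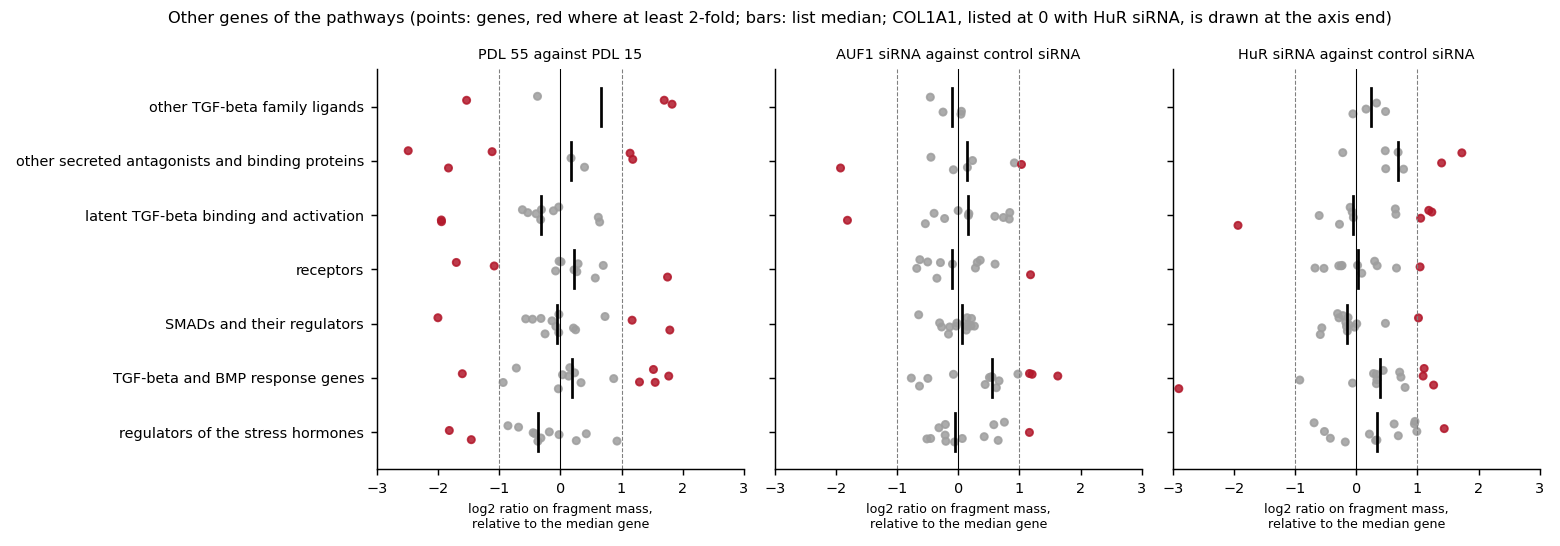
Relative log2 ratios on fragment mass (horizontal axes) of the measured genes of the 7 lists in 3 comparisons. Each point is a gene, red at 2-fold or more whatever its bounds, bars are list medians, dashed lines mark 2-fold, and COL1A1, listed at 0 with HuR siRNA, is drawn at the axis end. In most lists points lie on both sides of 0, and BGN at PDL 55 is at the lower extreme of its list.

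The profiles of the 3 genes with the widest range over the libraries on annotated sums (STC2, STC1 and FST) were set beside those of 7082 genes whose mean FPKM was 5 or more, by Euclidean distance of the centred log2(FPKM + 1) over 5 libraries. On fragment mass the log2 range of STC2 was 1.53 in place of 5.96 and that of FST 1.33 in place of 2.21, and STC1 (3.21), GDF15 (2.08) and TGFB2 (1.97) ranged widest. PRSS23 lay nearest to STC1, at a distance of 0.36, followed by CYP2S1 (0.48). PRSS23 ran from 19.5 FPKM at PDL 15 to 92.9 at PDL 55. MEN1 was the nearest to FST (0.26), then the pseudogenes GAPDHP65 (0.36) and GAPDHP35 (0.41). The nearest to STC2, which were MLF2 (0.46), PPP1R10 (0.50) and EIF5A (0.65), were all listed at 0 with control siRNA, as STC2 was on annotated sums.

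Genes with the nonamer in the longest 3′ UTR had medians close to those of genes without it. The median relative ratio was -0.04 for 970 genes with it and 0.02 for 8775 without it in AUF1 siRNA against control siRNA. In HuR siRNA against control siRNA the medians were -0.07 and 0.02, and at PDL 55 against PDL 15 they were 0.02 and 0.00. GDF15, at 1.98 and 2.08 in the 2 knockdown comparisons, was well above either median. With AUF1 siRNA the other members with the nonamer stood at 2.18 (FST), 0.98 (FSTL1), 0.92 (INHBA), 0.06 (STC1), -0.24 (GREM1) and -0.30 (TGFB2). With HuR siRNA they ran from 0.34 (GREM1) to 0.99 (FST). On fragment mass FST came to 0.79 with AUF1 siRNA and -0.43 with HuR siRNA. The longest UTR need not be the one present in these cells, and a part of the motif in these ratios was not tested.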

How the data were processed

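TopHat2 2.0.6, Cufflinks 2.0.2, Cuffdiff and build hg19 are named in the submitters' processing notes. For each library the authors deposited a table with, per the file headers, an FPKM value, its 95% bounds, a coverage signal and a status for each annotated and assembled transcript. The annotation release and the read numbers are not stated in the labels or headers. Per the labels' protocols, cDNA was amplified from total RNA after ribosomal RNA removal, and strand is not stated.

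Of 160485 annotated transcripts 94.6% received a gene, through GENCODE release 29 identifiers, a gene identifier shared within the tables, or, for the 2 GREM1 transcripts, their neighbours. FPKM and bounds were summed per gene, which widens the bounds. Genes with a transcript of status FAIL, small RNA genes and genes with a mean FPKM under 1 were left out, and 12559 remained (11941 on fragment mass). The deposited coverage signal was used only for relative depth. Ratios used a pseudocount of 1 FPKM and were centred on the median of all genes, which moved them by 0.32, -0.18, -0.31, 0.12 and 0.42 in the order PDL 55 against PDL 15, AUF1 and HuR siRNA against control siRNA, AUF1 against HuR siRNA, and lastly control siRNA against PDL 15. No p-value was computed. The 10 genes, the pathway lists and the 2-fold rule were chosen with earlier results of these data known, and fragment mass was added after seeing the values. The genes named are the 10, the siRNA targets, up to 3 genes per list and direction, and the 3 nearest profiles of 3 genes, of which some are not reported here. Transcripts named hold at least 10% of a gene's FPKM, are listed at 0 beside an assembled one, or are the coding transcript of their gene, the last 2 kinds chosen after their values were seen. The code (Python 3.11.15, pandas 2.3.3, numpy 2.4.6) was tested on simulated data.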

Additional observations from a re-analysis of the deposited data

How the results depend on the processing

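No paired analysis was possible because each group had 1 library and the labels give no replicate numbers. The alternatives were another pseudocount, scaling as deposited or to a common sum of annotated FPKM, adding assembled transcripts, the main transcript alone, leaving out LOWDATA transcripts, other filters, another reference library, and fragment mass. Of the ratios of single genes under them, 401 stayed within the bounds of the main ratio, 116 left them, and 3 of genes that had been apart changed sign. Those 3 were TGFB1 in AUF1 siRNA against control siRNA (0.38 with PDL 15 as the reference), STC2 in HuR siRNA against control siRNA (-0.14 on fragment mass), and STC2 in control siRNA against PDL 15 (0.84 on fragment mass). For STC2 the construction of the measure shows the cause, since fragment mass counts the assembled transcripts. For TGFB1 the cause was not tested. The count of genes apart stayed within 1.5 times its main value for PDL 55 against PDL 15 (4), AUF1 against HuR siRNA (1) and also control siRNA against PDL 15 (3) under every alternative run. A steady count need not hold the same genes. With control siRNA as the reference for PDL 55, GREM1 is not apart, since its control bounds run from 0 to 280.0. STC2 is there set against its 0, and without LOWDATA transcripts STC1 has no value. For AUF1 siRNA against control siRNA (4) the count fell to 2 on fragment mass. As deposited, INHBA (1.10) and FSTL1 (1.16) were also apart in that comparison. For HuR siRNA against control siRNA (2) it was 4 as deposited, 5 rescaled to that common sum, 5 without LOWDATA transcripts, 4 without the filter on low values, 1 on fragment mass, and 5 with PDL 15 as the reference. Depth limits the control siRNA library most, with a coverage per FPKM of 0.300.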
